A study of Homo sapiens with 9 samples.

Results

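Mitochondrial ribosomal proteins are the protein components of the ribosome that works inside mitochondria. They were taken here as every gene of the deposited table whose symbol is MRPL or MRPS followed by a number and at most 1 letter (A, B or C). That gave 78 of the 16222 genes, 49 named for the large subunit (MRPL) and 29 for the small subunit (MRPS). RNA sequencing was done in THP-1, a line grown from a human monocytic leukaemia, with a wild-type genotype per the labels. All cells had PMA beforehand, the phorbol ester commonly used to turn these monocytes into adherent macrophage-like cells. The 3 groups then received LPS with ABS (called LPS_ABS here), LPS alone, or PBS (called control), with 3 libraries each and 9 in all. LPS is lipopolysaccharide, an outer-membrane component of Gram-negative bacteria. The labels do not spell out ABS, while the series title speaks of apoptotic bodies and macrophage polarization. The sources used here give no dose or time, and no label says that the libraries of a group came from separate cultures. The p-values below therefore measure the spread between these libraries, which may be technical.

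Mitochondria keep a small genome whose messages encode core subunits of the respiratory chain and ATP synthase, and a dedicated ribosome translates them. The ribosomal RNAs come from mitochondrial DNA, whereas every protein of this ribosome is encoded in the nucleus, made in the cytoplasm and imported. Some of these proteins descend from bacterial ribosomal proteins, and others exist only in mitochondria. The small subunit decodes the message, and the large subunit forms the peptide bond. Activated macrophages are known for changing how much they rely on mitochondrial respiration.

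Libraries held 38506162 to 41679412 counts each. Members took 0.461% to 0.497% of the counts in LPS_ABS libraries, 0.429% to 0.504% in LPS libraries and 0.527% to 0.530% in control libraries. All 10 monocyte and macrophage markers listed were detected above the filter, with a summed level of 1146 to 1350 FPKM (counts scaled to gene length and library total) in LPS_ABS, 1121 to 1218 FPKM in LPS and 971 to 1049 FPKM in control libraries. Of the markers of other cells, T cell and erythroid lists had 0 of 3 and 0 of 2 members above the filter. B cell (1 of 3), epithelial (2 of 4) and fibroblast or chondrocyte (2 of 5) lists summed to at most 1.28 FPKM. The endothelial list, led by PECAM1, which monocytes also express, summed to 29.6 to 48.7 FPKM in the 9 libraries. Since these are bulk samples, fewer cells of a type and less RNA per cell cannot be told apart.

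Levels between members were compared per length, as mean FPKM over the 9 libraries. Median levels were 41.2 FPKM over 49 MRPL genes and 23.6 FPKM over the 28 MRPS genes tested, against 5.02 FPKM over all 12970 genes tested. MRPL37, a large-subunit protein found only in mitochondria, averaged 306 ± 30.6 FPKM in LPS_ABS, 253 ± 28.05 FPKM in LPS and 257 ± 6.55 FPKM in control libraries (SD, n = 3 each). MRPL18, a homologue of bacterial L18, averaged 204 ± 17.8 FPKM in LPS_ABS, 212 ± 15.7 FPKM in LPS and 204 ± 2.89 FPKM in control libraries (SD, n = 3 each). MRPL41, also mitochondria-specific, averaged 181 ± 28.4 FPKM in LPS_ABS, 139 ± 14.6 FPKM in LPS and 176 ± 6.595 FPKM in control libraries (SD, n = 3 each). These were the 3 highest MRPL genes by level. MRPS34, a mitochondria-specific protein needed for small-subunit stability, averaged 155 ± 14.9 FPKM in LPS_ABS, 123 ± 6.69 FPKM in LPS and 159 ± 7.66 FPKM in control libraries (SD, n = 3 each). MRPS18A averaged 91.8 ± 15.7 FPKM in LPS_ABS, 94.6 ± 7.83 FPKM in LPS and 73.8 ± 1.398 FPKM in control libraries (SD, n = 3 each). MRPS15, a homologue of bacterial S15, averaged 80.5 ± 2.22 FPKM in LPS_ABS, 77.5 ± 5.84 FPKM in LPS and 82.3 ± 1.42 FPKM in control libraries (SD, n = 3 each). Those were the 3 highest MRPS genes. At the low end were MRPL42, MRPL19 and MRPL39 of the large subunit, at 2.27, 2.75 and 3.91 FPKM, and MRPS28, MRPS31 and MRPS33 of the small subunit, at 2.81, 6.52 and 6.72 FPKM. The length behind the FPKM of MRPL42 was 15560 bases, and the median length over the 77 members tested was 1540 bases.

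MRPS24 was the only member below the filter on low counts. It had 3, 1 and 4 reads in LPS_ABS libraries, 2, 6 and 3 in LPS libraries and 1, 0 and 7 in control libraries. In GENCODE v29 its exons overlap those of the read-through gene URGCP-MRPS24 on the same strand, so where its reads were counted cannot be told from the table. In that annotation 16 members overlap exons of another gene on the same strand, 29 overlap one on the other strand, and 37 overlap none. How strand was treated in counting is not given in the sources used here. Reads of such pairs may therefore not be separated. Members called below are among them, such as MRPS5, MRPS6, MRPS16, MRPS17 and MRPL30 on the same strand. On the other strand they include MRPS7, MRPS12, MRPS22, MRPS25 and MRPL19.

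With LPS, 15 of the 77 members tested fell relative to control and 0 rose (edgeR quasi-likelihood test, adjusted p under 0.05 over all 12970 genes). Of all genes tested, 7.19% fell and 7.71% rose, 14.9% in all. At an unadjusted p under 0.05, 28 members were lower and 4 higher. That is 32 of 77, beside 3817 of all 12970 genes in either direction. DESeq2 called 20 members lower and 0 higher, and the share of all genes in that fit is not given here. Lower fold changes were not limited to the members called: 57 of 77 members had a log2 fold change below 0, against 52.7% of all genes. The median over members was -0.20, against -0.03 over all genes. The members that fell were 8 of 49 MRPL genes and 7 of 28 MRPS genes. They included 12 of the 45 homologues of bacterial ribosomal proteins tested (median -0.31) and 2 of the 29 mitochondria-specific proteins (median -0.18). The difference between these 2 classes was not tested.

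Values by library are in CPM, counts scaled to library size. MRPS7 (gene ID 51081), the homologue of bacterial S7 that binds the small ribosomal RNA and helps build the head of the small subunit, had 55.1, 52.8 and 58.9 CPM in LPS libraries, against 89.8, 81.3 and 88.2 CPM in control libraries (edgeR log2 fold change -0.64, SE 0.12, adjusted p = 0.0038). MRPL17 (gene ID 63875), the homologue of bacterial L17, had 72.3, 59.6 and 67.1 CPM in LPS libraries, against 102, 101 and 108 CPM in control libraries (edgeR log2 fold change -0.64, SE 0.12, adjusted p = 0.00479). MRPL3 (gene ID 11222), the homologue of bacterial L3 near the peptidyl transferase centre, had 104, 87.4 and 86.9 CPM in LPS libraries, against 150.2, 138 and 133 CPM in control libraries (edgeR log2 fold change -0.60, SE 0.12, adjusted p = 0.00655). In all 3 genes every LPS library was below every control library. MRPS12 (gene ID 6183), the homologue of bacterial S12 at the decoding site, had 29.6, 25.9 and 28.2 CPM in LPS libraries, against 45.5, 46.6 and 43.4 CPM in control libraries (edgeR log2 fold change -0.69, SE 0.15, adjusted p = 0.00811). MRPL50 (gene ID 54534), a mitochondria-specific protein of the large subunit, had 13.9, 12.6 and 14.7 CPM in LPS libraries, against 21.4, 23.5 and 21.1 CPM in control libraries (edgeR log2 fold change -0.68, SE 0.15, adjusted p = 0.00995). MRPS17 (gene ID 51373), the homologue of bacterial S17, had 13.1, 11.95 and 13.5 CPM in LPS libraries, against 23.1, 18.1 and 20.6 CPM in control libraries (edgeR log2 fold change -0.68, SE 0.15, adjusted p = 0.0112). The groups did not overlap in these 3 genes either. The other 9 genes that fell were MRPL35 (-0.63), MRPL19 (-0.62), MRPS36 (-0.55), MRPL27 (-0.49), MRPS6 (-0.48), MRPS5 (-0.47), MRPL4 (-0.44), MRPS25 (-0.42) and MRPL36 (-0.41) on the log2 scale. Over all 77 members, LPS libraries lay wholly below control libraries in 39 and wholly above in 6, against 22.7% and 19.9% of all genes.

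**Figure D1:**
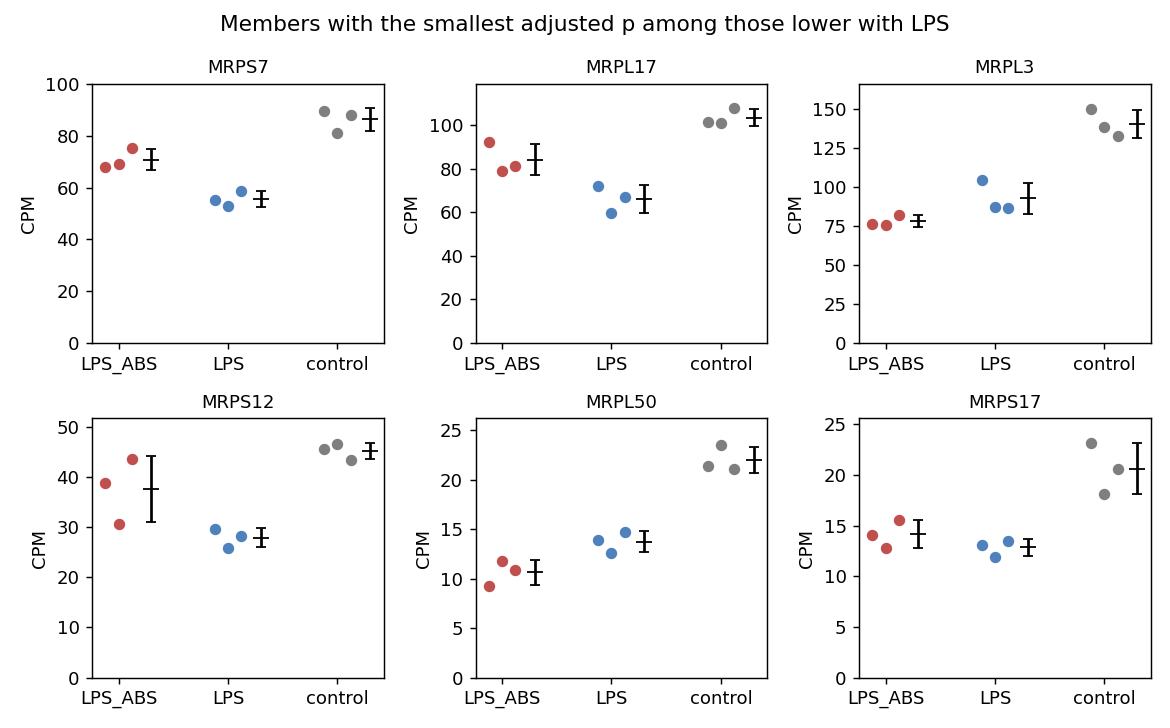
Levels in CPM (counts scaled to library size, vertical axes starting at 0) of the 6 members with the smallest adjusted p among those lower with LPS, in each library of the LPS_ABS, LPS and control groups (points), with the mean and SD of 3 libraries (bar beside the points). In each gene the 3 LPS points lie below the 3 control points, and MRPL3 and MRPL50 are lowest in the LPS_ABS libraries.

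How many members were called depended on single libraries. The fits without 1 library are given here without their share of all genes, so whether that share moved too is not shown. Without LPS library 2 there were 4 members lower, and without LPS library 3 it was 6; without control library 1, 2 or 3 it was 5, 7 or 7. MRPS7, MRPL17, MRPL3 and MRPS12 were called in all 9 fits that left out 1 library, MRPL50 and MRPS17 in 7, and the other 9 genes in 3 to 6.

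The promoters of the 4 members called in all of those fits are printed because these genes moved together with LPS. Each is a window of 300 bases, most of them before the gene's start (RefSeq, GRCh38.p14), and capitals mark matches to letters of 3 factors often named for nuclear genes of mitochondrial proteins. The letters were chosen after looking at the promoters: CCGGAAG for ETS factors such as GABPA, GCATGCGC for NRF1 and AAGATGGC for YY1, on both strands.
MRPS7 (chr17:75261629-75261928, plus strand): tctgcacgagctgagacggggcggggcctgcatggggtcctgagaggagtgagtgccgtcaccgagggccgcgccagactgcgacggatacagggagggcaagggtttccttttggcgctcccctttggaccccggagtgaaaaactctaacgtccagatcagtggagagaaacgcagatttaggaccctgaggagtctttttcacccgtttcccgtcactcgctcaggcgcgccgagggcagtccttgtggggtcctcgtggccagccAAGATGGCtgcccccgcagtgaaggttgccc
MRPL17 (chr11:6683291-6683590, minus strand): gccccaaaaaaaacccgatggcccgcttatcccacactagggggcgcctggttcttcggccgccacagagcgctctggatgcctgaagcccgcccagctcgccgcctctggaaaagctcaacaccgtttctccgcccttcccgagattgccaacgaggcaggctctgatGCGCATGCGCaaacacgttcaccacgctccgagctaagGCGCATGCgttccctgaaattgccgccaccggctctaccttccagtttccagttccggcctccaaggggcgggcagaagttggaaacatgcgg
MRPL3 (chr3:131502922-131503221, minus strand): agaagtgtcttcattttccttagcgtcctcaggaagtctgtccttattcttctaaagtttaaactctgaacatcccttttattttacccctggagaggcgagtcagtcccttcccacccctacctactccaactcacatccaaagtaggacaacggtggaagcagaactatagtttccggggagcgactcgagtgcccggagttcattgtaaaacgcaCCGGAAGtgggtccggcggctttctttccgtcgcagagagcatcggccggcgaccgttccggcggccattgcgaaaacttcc
MRPS12 (chr19:38930694-38930993, plus strand, the first of 2 annotated windows): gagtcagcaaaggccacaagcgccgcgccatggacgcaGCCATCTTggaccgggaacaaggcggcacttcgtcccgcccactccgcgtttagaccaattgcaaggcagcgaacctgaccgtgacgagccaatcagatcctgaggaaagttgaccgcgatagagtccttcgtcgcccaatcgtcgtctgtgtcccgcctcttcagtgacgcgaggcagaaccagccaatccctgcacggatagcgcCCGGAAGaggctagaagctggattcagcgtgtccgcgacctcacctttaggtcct
MRPS7 holds 1 match, for YY1, at position 20 and so after the gene's start. MRPL17 holds 3 for NRF1, 2 of which overlap. MRPL3 holds 1 for ETS factors, and MRPS12 holds 1 for YY1 and 1 for ETS factors. Of the 69 members with a promoter in that table, 30 (43.5%) held the ETS letters, 6 (8.70%) the NRF1 letters and 21 (30.4%) the YY1 letters, against 12.2%, 3.68% and 3.52% of 27305 genes. Any of the 3 stood in 44 members (63.8%), against 17.6% of genes. Since the letters were chosen after looking at the promoters, these shares are not an independent comparison with all genes. The 27305 genes are also more than the 16222 of the deposited table, so they include genes outside it. Among the members that fell with LPS, 7 of the 13 with a promoter held at least 1 of the 3. The ETS letters stood in 3 of the 13, the NRF1 letters in 1 and the YY1 letters in 4. The share with any of the 3 was not above that of all 69 members. A link between the letters and the fall with LPS was not tested. A match is a description of the letters and not a bound site.

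Adding ABS to LPS gave calls in both directions: 14 of 77 members rose and 6 fell relative to LPS alone. Over all genes 16.8% rose and 18.8% fell, 35.6% in all, beside 18.2% and 7.79% of the members, so the share that rose was near the background. The median over members was 0.09, against 0.02 over all genes. Scaled to total counts in place of TMM, the median over members was -0.01 with 4 higher and 13 lower, while the median of all genes shifted by -0.10 and their calls to 11.5% higher and 23.7% lower. By subunit, 8 MRPL and 6 MRPS genes rose, and 4 MRPL and 2 MRPS genes fell.

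MRPL4 (gene ID 51073), the homologue of bacterial L4 that lines the exit tunnel, had 113, 95.3 and 105 CPM in LPS_ABS libraries, against 61.2, 72.4 and 69.7 CPM in LPS libraries (edgeR log2 fold change 0.62, SE 0.12, adjusted p = 0.00561). MRPS5 (gene ID 64969), the homologue of bacterial S5, had 70.5, 76.8 and 81.4 CPM in LPS_ABS libraries, against 52.5, 55.1 and 55.5 CPM in LPS libraries (edgeR log2 fold change 0.49, SE 0.12, adjusted p = 0.00969). MRPS34 (gene ID 65993) had 186, 146 and 168 CPM in LPS_ABS libraries, against 124, 115 and 129 CPM in LPS libraries (edgeR log2 fold change 0.44, SE 0.12, adjusted p = 0.0162). All LPS_ABS libraries were above all LPS libraries in these genes. MRPL41 (gene ID 64975) had 136, 103 and 96.02 CPM in LPS_ABS libraries, against 83.2, 70.1 and 85.6 CPM in LPS libraries (edgeR log2 fold change 0.49, SE 0.15, adjusted p = 0.0234). MRPS25 (gene ID 64432), a mitochondria-specific protein of the small subunit, had 44.8, 38.7 and 47.9 CPM in LPS_ABS libraries, against 30.7, 32.3 and 34.7 CPM in LPS libraries (edgeR log2 fold change 0.43, SE 0.13, adjusted p = 0.0234). MRPL52 (gene ID 122704), a mitochondria-specific protein of the large subunit, had 71.3, 65.7 and 51.8 CPM in LPS_ABS libraries, against 50.1, 33.3 and 46.1 CPM in LPS libraries (edgeR log2 fold change 0.54, SE 0.17, adjusted p = 0.0288). The groups did not overlap in these 3 genes, though in MRPL52 the lowest LPS_ABS value lay near the highest LPS value. The other genes that rose were MRPS12 (0.43), MRPL12 (0.39), MRPL37 (0.38), MRPL55 (0.37), MRPS16 (0.35), MRPS7 (0.35), MRPL17 (0.34) and MRPL2 (0.34) on the log2 scale. Over all 77 members, LPS_ABS libraries lay wholly above LPS libraries in 28 and wholly below in 15, against 21.9% and 24.3% of all genes. A log2 fold change below 0 was seen in 34 members, against 49.2% of all genes.

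MRPS10 (gene ID 55173), the homologue of bacterial S10, had 60.1, 48.8 and 50.5 CPM in LPS_ABS libraries, against 91.8, 73.1 and 82.2 CPM in LPS libraries (edgeR log2 fold change -0.63, SE 0.13, adjusted p = 0.00641). MRPS22 (gene ID 56945), a mitochondria-specific protein of the small subunit, had 33.5, 35.7 and 28.6 CPM in LPS_ABS libraries, against 50.3, 44.9 and 43.8 CPM in LPS libraries (edgeR log2 fold change -0.51, SE 0.13, adjusted p = 0.0133). MRPL48 (gene ID 51642), a mitochondria-specific protein of the large subunit, had 21.1, 24.2 and 18.8 CPM in LPS_ABS libraries, against 31.4, 33.2 and 28.2 CPM in LPS libraries (edgeR log2 fold change -0.54, SE 0.14, adjusted p = 0.0134). Every LPS_ABS library was below every LPS library in these genes. MRPL39 (gene ID 54148), also mitochondria-specific, had 9.62, 9.56 and 6.43 CPM in LPS_ABS libraries, against 14.7, 11.97 and 13.2 CPM in LPS libraries (edgeR log2 fold change -0.64, SE 0.19, adjusted p = 0.0219). MRPL42 (gene ID 28977), also mitochondria-specific, had 27.1, 29.5 and 17.8 CPM in LPS_ABS libraries, against 42.6, 33.2 and 36.2 CPM in LPS libraries (edgeR log2 fold change -0.59, SE 0.18, adjusted p = 0.0275). MRPL19 (gene ID 9801), the homologue of bacterial L19 at the subunit interface, had 16.1, 13.2 and 14.4 CPM in LPS_ABS libraries, against 22.5, 17.7 and 18.2 CPM in LPS libraries (edgeR log2 fold change -0.42, SE 0.15, adjusted p = 0.0454). In MRPL39 and MRPL42 the third LPS_ABS library was the lowest of the 9 libraries.

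The count of members called moved with the library left out. Without LPS library 1, 2 or 3 there were 8, 2 or 4 members higher and 3, 10 or 3 lower. Without LPS_ABS library 1 or 2 there were 5 or 8 higher, and without LPS_ABS library 3 there were 3 lower. Leaving out control library 1, 2 or 3 gave 6, 6 or 8 higher. Control libraries are not in this comparison, but each fit redid the filter, the scaling, the shared estimate of the spread and the adjustment. The share of all genes called in those fits is not given here, so a change across the whole table cannot be told apart. MRPL4, MRPS5, MRPS10, MRPS22 and MRPL48 were called in all 9 fits with 1 library left out; these 5 were picked by that count after their values were seen. In GC-corrected fits MRPS22 was called in 3 of the 9 such fits and the other 4 genes in 0 of them.

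**Figure D2:**
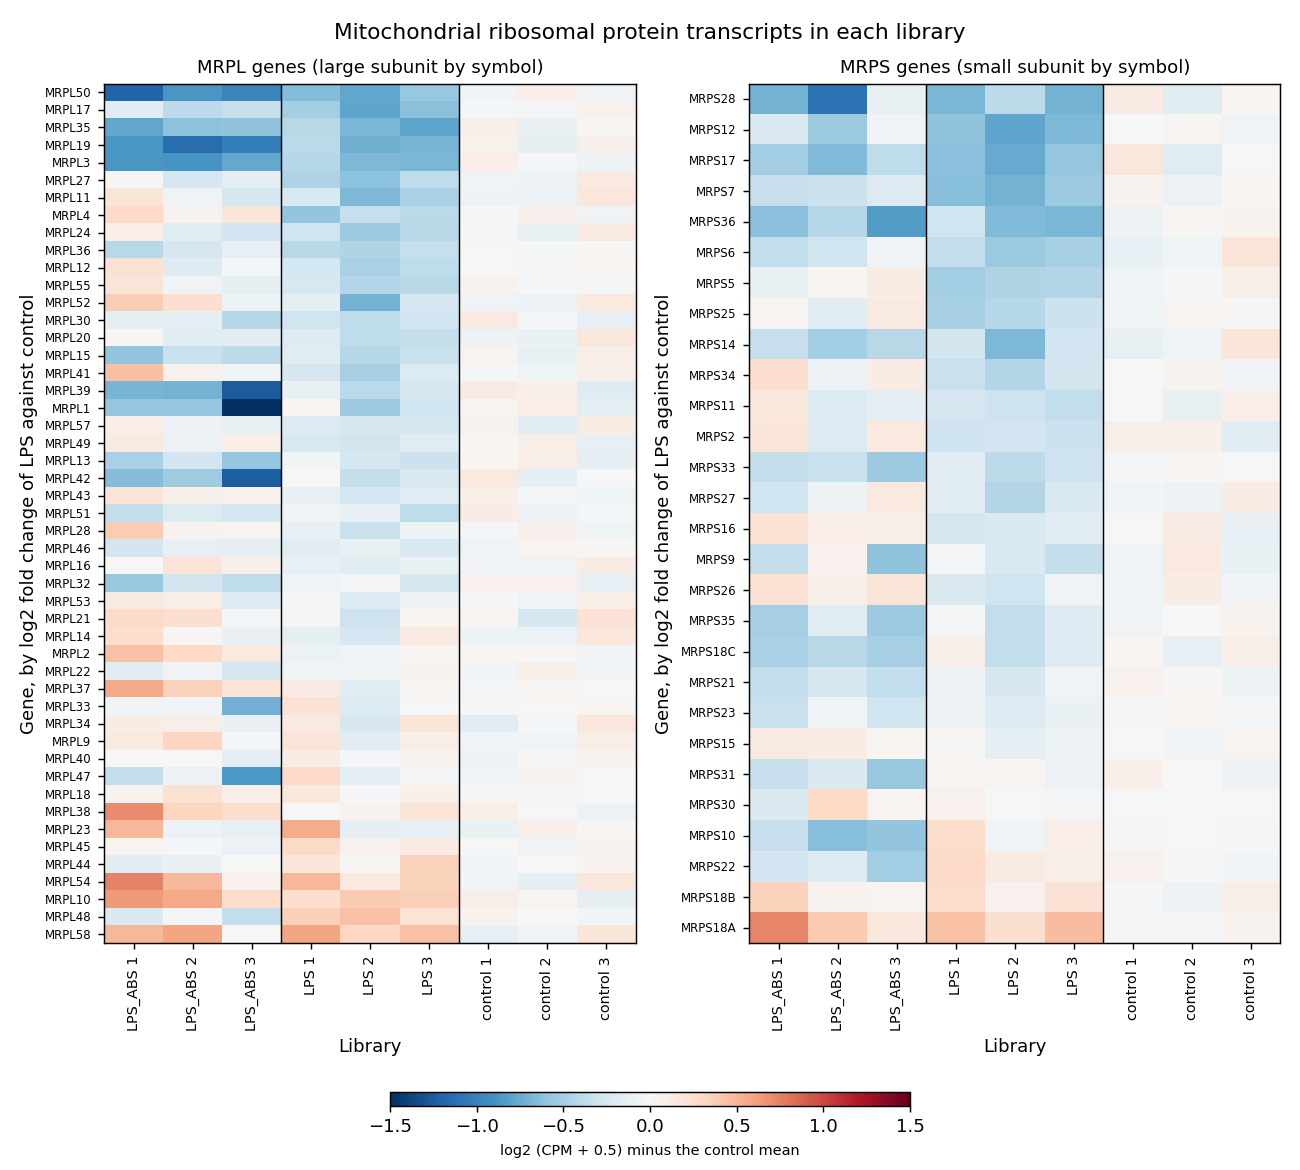
Level of each of the 77 members tested (rows) in each of the 9 libraries (columns, LPS_ABS, LPS and control), as log2 (CPM + 0.5) minus the mean of the 3 control libraries, with MRPL genes left and MRPS genes right, ordered by the fold change of LPS against control. Blue is lower and red higher than control; the LPS columns are blue in the upper rows, and the LPS_ABS columns hold both the bluest and the reddest cells.

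Transcript GC content moved with this comparison. The protocols name 2 library kits without saying which library was made with which, so whether the groups differ in kit is unknown and was not tested. It was read from the longest protein-coding transcript of each gene in GENCODE v29, and all 78 members had one. Members called higher with LPS_ABS had a GC content of 46.8% to 71.9% (median 54.2%), and members called lower had 38.3% to 48.5% (median 41.8%). Across the 77 members the log2 fold change of LPS_ABS against LPS and the GC content had a Spearman correlation of 0.72, against 0.69 across 12936 genes. These are descriptions across genes that share the same libraries. Per 10 percentage points of GC, log2 counts relative to the mean library changed by 0.22, 0.32 and 0.36 in LPS_ABS libraries, by -0.30, -0.02 and -0.12 in LPS libraries and by -0.17, -0.15 and -0.14 in control libraries.

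The last 120 coding bases of the members called in this comparison with the highest and the lowest transcript GC content are printed to show the difference in base composition. They come from the GENCODE v29 transcripts (GRCh38), and capitals mark G and C.
MRPL41 (chromosome 9, higher with LPS_ABS): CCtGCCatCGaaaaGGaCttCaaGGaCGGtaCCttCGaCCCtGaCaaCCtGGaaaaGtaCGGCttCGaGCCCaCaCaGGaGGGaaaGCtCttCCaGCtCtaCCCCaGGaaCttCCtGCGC
MRPL19 (chromosome 2, lower with LPS_ABS): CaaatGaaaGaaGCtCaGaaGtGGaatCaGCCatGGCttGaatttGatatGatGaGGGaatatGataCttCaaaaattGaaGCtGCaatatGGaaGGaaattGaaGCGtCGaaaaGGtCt
G or C made up 68 of the 120 bases (56.7%) in MRPL41 and 45 (37.5%) in MRPL19. Over the whole coding sequence the shares were 65.7% in MRPL41 and 47.1% in MRPL19, so both printed ends held less G and C than their coding sequence. Over the whole transcript the shares were 71.9% in MRPL41 and 38.3% in MRPL19.

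When each library's trend with GC content was taken out before the test, 7 members were higher and 2 lower, against 4.98% and 4.21% of all genes (9.19% in all). Of the members called before, MRPS16 and MRPS25 stayed higher and MRPS22 stayed lower, named here after their values were seen. Their log2 fold changes after the correction were 0.43 ± 0.12 SE (edgeR adjusted p = 0.0402), 0.47 ± 0.11 (edgeR adjusted p = 0.0256) and -0.53 ± 0.13 (edgeR adjusted p = 0.032). MRPS16, the homologue of bacterial S16, shares exons with DNAJC9 in the annotation, so its reads may not be its own. Exons of MRPS25 and MRPS22 overlap genes on the other strand, so the same may hold for them. Of the other members called, 12 of 14 higher and 5 of 6 lower lost the call, and MRPL12, MRPL41, MRPL55, MRPS34, MRPL19 and MRPL42 changed sign. Called only after the correction were MRPS36, MRPL35, MRPS14, MRPL27 and MRPL30 as higher and MRPL40 as lower. In GC-corrected CPM, LPS_ABS libraries lay wholly above LPS libraries in 14 members and wholly below in 4, in place of 28 and 15. Of all 12970 genes, 1752 and 1890 did so.

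The correction left a trend of the opposite sign in the members. After it, their Spearman correlation with GC was -0.58, against 0.01 across all genes. In the lowest of 5 bins of genes by GC content (30.2% to 41.3%), the median before the correction was -0.34 over 12 members and -0.65 over 2588 genes. In the highest bin (58.9% to 76.8%) it was 0.36 over 13 members and 0.44 over 2587 genes. Members are short, and 59 of 77 fall in the shortest 2594 genes, of 2176 bases or less. A correction fitted within 5 classes of length, added after seeing these values, left a correlation of -0.26 in the members and called 9 higher and 1 lower (6.91% and 5.87% of all genes, 12.8% in all). MRPS16 (0.43), MRPS25 (0.46), MRPL27 (0.61) and MRPL30 (0.45) were higher on the log2 scale and MRPS22 (-0.47) lower in both corrected fits, with adjusted p-values within length classes of 0.0203, 0.0171, 0.0119, 0.0276 and 0.0119 (edgeR). MRPS36 (0.44 on the log2 scale, edgeR adjusted p = 0.0487) was higher in both as well. In the GC-corrected fits with 1 library left out, MRPL27 was called in 9 of 9, MRPS25 in 6, MRPS36 in 4, MRPS22 in 3, and MRPS16 and MRPL30 in 2 each.

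**Figure D3:**
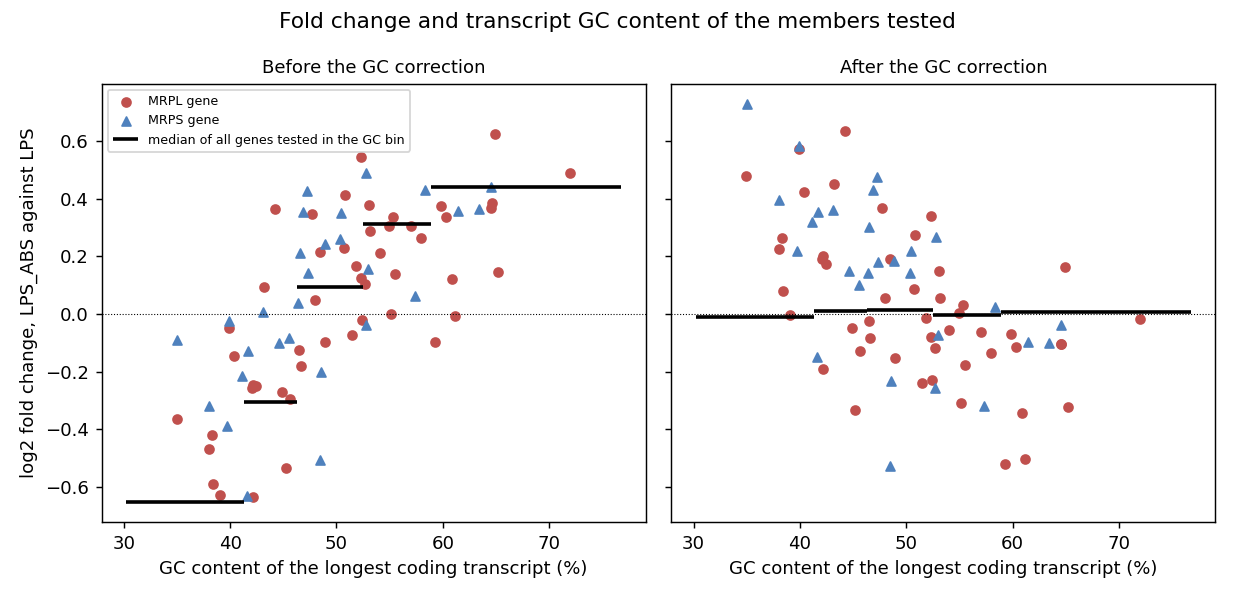
Log2 fold change of LPS_ABS against LPS (vertical axis) and GC content of the longest coding transcript (horizontal axis, %) for the 49 MRPL (circles) and 28 MRPS (triangles) genes tested, before (left) and after (right) the GC correction; black bars are medians of all genes tested in 5 bins of GC content. Before the correction members and bins climb from left to right, with medians of -0.65 in the lowest bin and 0.44 in the highest; after it the bins lie near 0 and the members slope downward.

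LPS against control carried little of this trend. The Spearman correlation of its log2 fold change with GC was 0.11 across the 77 members and 0.01 across all genes. After the GC correction 14 of the 15 members that fell with LPS were still called and 0 were higher, against 9.72% lower and 11.4% higher over all genes (21.1% in all). At an unadjusted p under 0.05, 23 members were lower and 4 higher in that fit. That is 27 of 77, beside 4377 of all 12970 genes in either direction. In GC-corrected CPM, LPS libraries lay wholly below control libraries in 27 members, in place of 39, and wholly above in 7. Of all 12970 genes, 2946 and 3025 did so. MRPL36, the homologue of bacterial L36, lost its call (edgeR log2 fold change -0.35, SE 0.14, adjusted p = 0.101, against edgeR log2 fold change -0.41, SE 0.12, adjusted p = 0.0448 before). MRPS7 (edgeR log2 fold change -0.61, SE 0.10, adjusted p = 0.00159), MRPL17 (edgeR log2 fold change -0.60, SE 0.12, adjusted p = 0.00431) and MRPL3 (edgeR log2 fold change -0.55, SE 0.11, adjusted p = 0.0031) had the smallest adjusted p. Within length classes 22 members were lower and 4 higher (12.1% and 13.3% of all genes, 25.4% in all); the 4 were MRPL10, MRPL48, MRPL58 and MRPS18A, named after their values were seen.

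LPS_ABS against control used the same libraries as the comparisons above. There 4 members were higher and 18 lower, against 14.8% and 19% of all genes (33.8% in all). Scaled to total counts there were 1 higher and 26 lower, against 9.19% and 25.2% of all genes, with the median of all genes shifted by -0.13. MRPL10 (gene ID 124995), the homologue of bacterial L10 of the stalk that recruits elongation factors, had 69.6, 65.9 and 53.7 CPM in LPS_ABS libraries, against 47.6, 45.9 and 40.2 CPM in control libraries (edgeR log2 fold change 0.50, SE 0.14, adjusted p = 0.0148). MRPL38 (gene ID 64978), a mitochondria-specific protein, had 117, 89.6 and 85.9 CPM in LPS_ABS libraries, against 75.7, 71.7 and 66.9 CPM in control libraries (edgeR log2 fold change 0.45, SE 0.14, adjusted p = 0.0272). MRPL37 (gene ID 51253) had 682, 581 and 529 CPM in LPS_ABS libraries, against 451, 468 and 456 CPM in control libraries (edgeR log2 fold change 0.38, SE 0.12, adjusted p = 0.0295). With MRPS18A these were the members that rose, and their groups did not overlap. Among those lower, MRPL3 had 76.4, 75.4 and 82.4 CPM in LPS_ABS libraries, against 150.2, 138 and 133 CPM in control libraries (edgeR log2 fold change -0.85, SE 0.12, adjusted p = 0.000851). MRPL50 had 9.31, 11.8 and 10.8 CPM in LPS_ABS libraries, against 21.4, 23.5 and 21.1 CPM in control libraries (edgeR log2 fold change -1.05, SE 0.15, adjusted p = 0.000868). MRPL19 had 16.1, 13.2 and 14.4 CPM in LPS_ABS libraries, against 30.99, 27.1 and 31.6 CPM in control libraries (edgeR log2 fold change -1.04, SE 0.15, adjusted p = 0.000925). Every LPS_ABS library was below every control library in these 3 genes. MRPL39 had 9.62, 9.56 and 6.43 CPM in LPS_ABS libraries, against 17.4, 16.8 and 13.9 CPM in control libraries (edgeR log2 fold change -0.91, SE 0.19, adjusted p = 0.00429). MRPL35 had 23.2, 26.1 and 26.3 CPM in LPS_ABS libraries, against 42.9, 37.2 and 41.1 CPM in control libraries (edgeR log2 fold change -0.68, SE 0.14, adjusted p = 0.00433). MRPL42 had 27.1, 29.5 and 17.8 CPM in LPS_ABS libraries, against 47.3, 38.8 and 42.5 CPM in control libraries (edgeR log2 fold change -0.79, SE 0.18, adjusted p = 0.00779). All 6 had transcripts of 35.0% to 42.4% GC, and their groups did not overlap. Over all 77 members, LPS_ABS libraries lay wholly above control libraries in 6 and wholly below in 30, against 24.9% and 25.1% of all genes, and 45 members were below 0 on the log2 scale, against 46.9%. The other 12 that fell ranged from -0.33 (MRPS21) to -0.89 (MRPL1) on the log2 scale.

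After the GC correction 1 member was higher (MRPL22) and 6 were lower, against 7.93% and 5.04% of all genes (13% in all). MRPL3 (edgeR log2 fold change -0.38, SE 0.11, adjusted p = 0.0322) and MRPS17 (edgeR log2 fold change -0.46, SE 0.14, adjusted p = 0.0399) stayed lower. MRPL36, MRPL46, MRPS12 and MRPS7 were lower only after the correction. The members named here were chosen after their values were seen. The correction left a trend of the opposite sign here too. The members' Spearman correlation with GC was 0.76 before it and -0.44 after, against 0.69 and 0.03 across all genes. Within length classes it was -0.23 in the members. Transcript GC was 40.4% in MRPL22 and 65.2%, 52.4%, 58.4% and 50.4% in MRPL36, MRPL46, MRPS12 and MRPS7. Within length classes 2 were higher (MRPL10 and MRPL22) and 4 lower (MRPL3, MRPL24, MRPL36 and MRPS12), against 9.8% and 6.39% of all genes (16.2% in all). Without control library 1, 2 or 3 the uncorrected counts were 1, 1 or 0 higher and 8, 11 or 10 lower. Without LPS_ABS library 1, 2 or 3 there were 1, 2 or 7 higher. Shares of all genes in the fits without 1 library are not given here either. In GC-corrected CPM, LPS_ABS libraries lay wholly above control libraries in 2 members and wholly below in 26. Of all 12970 genes, 2088 and 1950 did so.

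Side by side, the 3 comparisons gave MRPS7 log2 fold changes of -0.64 for LPS against control, 0.35 for LPS_ABS against LPS and -0.29 for LPS_ABS against control. For MRPL4 they were -0.44, 0.62 and 0.18, and for MRPS5 -0.47, 0.49 and 0.01. For MRPL3 they were -0.60, -0.25 and -0.85, and for MRPL50 -0.68, -0.36 and -1.05. For LPS_ABS against LPS, MRPS7, MRPL4 and MRPS5 were called higher, whereas MRPL3 and MRPL50 were not called (edgeR adjusted p = 0.12 and 0.0735). With the GC correction none of these 5 was called in that comparison. The corrected log2 fold changes were 0.22 in MRPS7, 0.16 in MRPL4 and 0.27 in MRPS5 (edgeR adjusted p = 0.185, 0.316 and 0.105). The sign turned in MRPL3, to 0.17, and in MRPL50, to 0.48 (edgeR adjusted p = 0.3 and 0.172). The pairs of comparisons share libraries, so these values are not independent of one another.

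Large and small subunit were set against each other by the median log2 fold change of their members, without a test, since members are not replicates. For LPS against control the medians were -0.18 over 49 MRPL genes and -0.25 over 28 MRPS genes, a difference of 0.06. For LPS_ABS against LPS they were 0.10 and 0.05, a difference of 0.05. For LPS_ABS against control they were -0.04 and -0.25, a difference of 0.21. By library, the median log2 deviation from the mean of all 9 libraries was higher in MRPL than in MRPS genes by 0.22, 0.05 and -0.09 in LPS_ABS, by -0.01, -0.01 and 0.01 in LPS and by -0.06, -0.08 and -0.03 in control libraries. The SD of this value over 3 libraries was 0.157 in LPS_ABS, 0.0157 in LPS and 0.0251 in control. Without the GC correction, all LPS libraries were above all control libraries. The LPS_ABS libraries spread over a range that held every LPS and control library. With the correction the MRPL and MRPS medians were 0.09 and -0.07, -0.20 and -0.24, and -0.07 and -0.13 in LPS libraries. In control libraries they were 0.13 and 0.06, 0.05 and 0.09, and 0.12 and 0.09. The LPS and control libraries then overlapped in the difference of MRPL and MRPS medians.

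Median transcript GC content was 51.5% in MRPL and 47.3% in MRPS genes. With the GC correction the difference of medians was 0.05 for LPS against control, -0.18 for LPS_ABS against LPS and -0.11 for LPS_ABS against control, so the sign of both LPS_ABS differences turned. Within length classes it was 0.06, -0.07 and -0.03. Cryo-EM structures place MRPS30 and MRPS18A in the large subunit, and MRPS36 is now known as a subunit of the oxoglutarate dehydrogenase complex. Counted that way, with MRPS36 left out, the difference for LPS_ABS against LPS was -0.05 in place of 0.05, and the other 2 kept their sign.

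**Figure D4:**
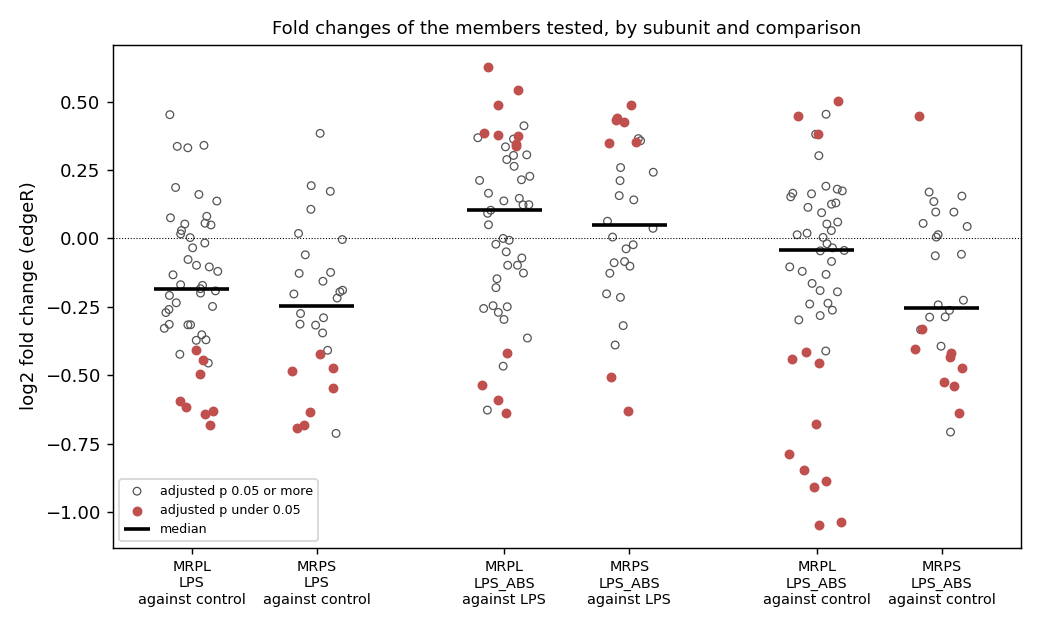
Log2 fold change (vertical axis) of each member tested, by subunit in the symbol and comparison (horizontal axis); filled points have an adjusted p under 0.05, open points do not, and black bars are medians. MRPL and MRPS medians lie at -0.18 and -0.25 for LPS against control, at 0.10 and 0.05 for LPS_ABS against LPS, and at -0.04 and -0.25 for LPS_ABS against control.

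Summed over the 77 members, LPS_ABS libraries had 5426, 5024 and 4767 CPM, LPS libraries had 4829, 4225 and 4633 CPM and control libraries had 5085, 5049.6 and 5191 CPM. All LPS sums were below all control sums, whereas LPS_ABS sums overlapped both other groups. GC-corrected sums were 5111, 4981 and 4511 CPM in LPS_ABS, 5223, 4198 and 4715 CPM in LPS and 5167, 5073 and 5196 CPM in control libraries. LPS library 1 then lay above all control libraries, and LPS and control overlapped. The sum of MRPL genes was 2.496, 2.39 and 2.18 times that of MRPS genes in LPS_ABS libraries, 2.32, 2.22 and 2.27 times in LPS libraries and 2.19, 2.16 and 2.22 times in control libraries. As group means the ratio was 2.35 ± 0.164 with LPS_ABS, 2.27 ± 0.0465 with LPS and 2.19 ± 0.0299 in control (SD, n = 3 each). The spread between LPS_ABS libraries exceeded the difference between LPS_ABS and LPS means. After the GC correction the ratio was 2.24 ± 0.152 with LPS_ABS, 2.32 ± 0.0949 with LPS and 2.24 ± 0.0339 in control, so the order of the groups was not kept. Highly expressed genes weigh most in such sums. Without the correction MRPL37 alone averaged 597 CPM in LPS_ABS, 459 in LPS and 458 in control libraries. The MRPL sums averaged 3561, 3168 and 3508 CPM in the same order. A ratio without MRPL37 is not given here.

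**Figure D5:**
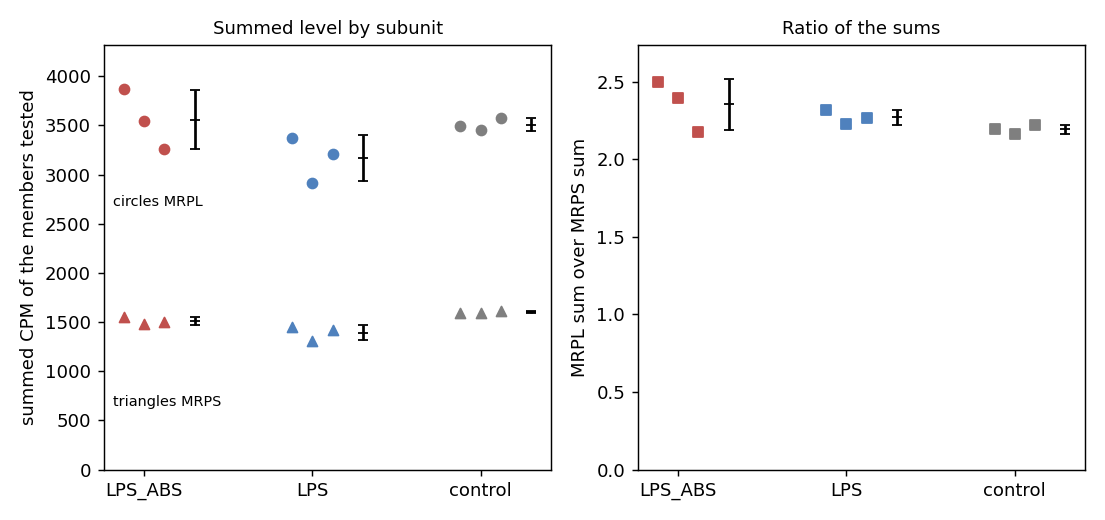
Left, summed CPM of the MRPL (circles) and MRPS (triangles) genes tested in each library of the LPS_ABS, LPS and control groups; right, the ratio of the 2 sums. Bars beside the points are the mean and SD of 3 libraries, and both axes start at 0. The group mean is lowest with LPS in both sums, and the ratio runs from 2.18 to 2.496 in LPS_ABS libraries.

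Several members do not follow their names. MRPS36 fell with LPS, at 21.7, 16.7 and 16.5 CPM in LPS libraries, against 25.3, 27.3 and 27.8 CPM in control libraries (edgeR log2 fold change -0.55, SE 0.16, adjusted p = 0.0375). For LPS_ABS against LPS it was -0.09 before the GC correction and 0.73 after it (edgeR adjusted p = 0.688 and 0.0256). Its transcript GC content was 35.0%. MRPL35 and MRPS14 moved likewise, MRPL35 with -0.05 before and 0.57 after, and MRPS14 with -0.02 before and 0.58 after. MRPS30, which sits in the large subunit, had 56.1, 80.6 and 67.1 CPM in LPS_ABS, 68.7, 65.5 and 64.5 CPM in LPS and 65.7, 65.6 and 64.95 CPM in control libraries. It was not called in any comparison, and its LPS_ABS values spread around those of both other groups.

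The 3 paralogues of bacterial S18 differ in place: MRPS18C is the small-subunit homologue, MRPS18B lies elsewhere in the small subunit and MRPS18A in the large one. MRPS18A had 164, 129.97 and 110.3 CPM in LPS_ABS, 134, 117 and 136 CPM in LPS and 96.7, 97.4 and 102 CPM in control libraries. It was higher in LPS_ABS than in control (edgeR log2 fold change 0.45, SE 0.14, adjusted p = 0.0322) and not called for LPS against control (edgeR log2 fold change 0.38, SE 0.14, adjusted p = 0.0935). MRPS18B had 34.8, 28.4 and 28.2 CPM in LPS_ABS, 33.3, 28.7 and 31.9 CPM in LPS and 26.99, 25.95 and 29.1 CPM in control libraries and was not called in any comparison. MRPS18C had 26.7, 28.04 and 26.5 CPM in LPS_ABS, 39.7, 28.9 and 32.7 CPM in LPS and 38.5, 34.5 and 39.96 CPM in control libraries. It was lower in LPS_ABS than in control (edgeR log2 fold change -0.48, SE 0.14, adjusted p = 0.0237), and its sign turned with the GC correction (edgeR log2 fold change 0.24, SE 0.15, adjusted p = 0.319). MRPS18A and MRPS18C thus had calls of opposite sign for LPS_ABS against control, with transcripts of 57.3% and 38.0% GC, and neither call held after the correction.

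Genes around the mitochondrial ribosome were taken from 5 further lists. With LPS, of the 5 ribosomal proteins with other names 1 fell, GADD45GIP1 of the large subunit, with 43.8 ± 5.100 CPM in LPS and 66.03 ± 3.24 CPM in control libraries (SD, n = 3 each, with an edgeR log2 fold change of -0.59, SE 0.15 and adjusted p = 0.0224). Of 18 translation factors 3 fell: SLIRP, which stabilises mitochondrial messages, GFM1, an elongation factor (-0.57 on the log2 scale), and TSFM, which recharges elongation factor Tu (-0.47). SLIRP fell, with 25.7 ± 3.51 CPM in LPS and 46.05 ± 3.01 CPM in control libraries (SD, n = 3 each, with an edgeR log2 fold change of -0.84, SE 0.15 and adjusted p = 0.00314). Of 28 assembly and RNA modification genes 4 fell, among them MRM1, a methyltransferase of the large ribosomal RNA, with 3.52 ± 0.822 CPM in LPS and 9.64 ± 1.27 CPM in control libraries (SD, n = 3 each, with an edgeR log2 fold change of -1.45, SE 0.25 and adjusted p = 0.00259). The others were RCC1L, a factor of ribosome assembly (-0.65), TRMT61B, an RNA methyltransferase (-0.67), and RBFA, which helps mature the small subunit (-0.46). With the GC correction 12 of these 28 were lower, against 9.72% of all genes in that fit. Of 12 genes of mitochondrial DNA transcription and upkeep, TFB2M, a transcription initiation factor (-0.68), and TWNK, the replicative helicase (-0.69), fell. Of 8 transcription factors and coactivators 1 fell, PPRC1, a coactivator of NRF1 (-0.86). Over all genes 7.19% fell.

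For LPS_ABS against LPS the same lists gave 1 higher and 1 lower of 5, 1 and 4 of 18, 11 and 3 of 28, 2 and 5 of 12, and 1 and 2 of 8, against 16.8% higher and 18.8% lower over all genes. MRM1 rose, with 8.200 ± 2.45 CPM in LPS_ABS and 3.52 ± 0.822 CPM in LPS libraries (SD, n = 3 each, with an edgeR log2 fold change of 1.22, SE 0.25 and adjusted p = 0.00626). DHX30, an RNA helicase of ribosome assembly, rose, with 205 ± 18.3 CPM in LPS_ABS and 117 ± 29.6 CPM in LPS libraries (SD, n = 3 each, with an edgeR log2 fold change of 0.81, SE 0.17 and adjusted p = 0.00635). TUFM, elongation factor Tu, rose, with 429 ± 66.8 CPM in LPS_ABS and 281 ± 3.48 CPM in LPS libraries (SD, n = 3 each, with an edgeR log2 fold change of 0.61, SE 0.12 and adjusted p = 0.00596). LRPPRC, the partner of SLIRP, fell, with 89.2 ± 28.2 CPM in LPS_ABS and 155 ± 12.8 CPM in LPS libraries (SD, n = 3 each, with an edgeR log2 fold change of -0.80, SE 0.18 and adjusted p = 0.00851). After the GC correction TUFM (0.23 on the log2 scale, edgeR adjusted p = 0.232) and LRPPRC (-0.39, edgeR adjusted p = 0.11) lost their calls. In that fit 1 of 18 translation factors was higher, SLIRP (1.003, edgeR adjusted p = 0.00858), and 1 was lower, MTRES1 (-0.51, edgeR adjusted p = 0.0477). Of 28 assembly genes 3 were higher, DHX30, MRM1 and MALSU1, and of 12 genes of mitochondrial DNA transcription and upkeep 1 was higher, SSBP1. MTRES1, MALSU1 and SSBP1 are named after their values were seen. Over all genes 4.98% were higher and 4.21% lower in the corrected fit. For LPS_ABS against control without the correction, 1 of 18 translation factors was higher and 6 lower, 3 and 5 of 28 assembly genes, and 1 and 6 of 12 genes of mitochondrial DNA upkeep, against 14.8% and 19% of all genes. With the correction they were 1 and 2 of 18, 1 and 2 of 28, and 0 and 2 of 12, against 7.93% and 5.04% of all genes. FASTKD2, an RNA-binding protein of ribosome assembly, was lower there, with 6.95 ± 1.25 CPM in LPS_ABS and 16.9 ± 1.63 CPM in control libraries (SD, n = 3 each, with an edgeR log2 fold change of -1.28, SE 0.19 and adjusted p = 0.000966). With the correction its log2 fold change was -0.64 (edgeR adjusted p = 0.0148).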

How the data were processed

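RNA was sequenced from 9 samples of PMA-treated THP-1 cells in 3 groups of 3. TRIzol extraction and 2 library kits, TruSeq Stranded mRNA LT and VAHTS Universal V5, are named per the labels' protocols. Every sample names both, so the kit of each library is unknown, and with it whether its reads mark strand. Raw read counts per gene were deposited by the authors, and a table of FPKM for the same genes was deposited too. In it each FPKM equals the count divided by gene length and library total, with a relative spread of implied length of at most 1.5e-13. The submitters' processing notes name fastp, HISAT2, HTSeq, R 3.2.0 and DESeq2 without their roles. Genome build, annotation and the strand setting of counting are not given in the sources used here. Counts have 0 entries without a gene name. Depth limits precision only by the number of counts, 38506162 to 41679412 per library, and 0 per-sample columns lay outside the sample map.

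Counts were tested with edgeR 4.0.16 (R 4.3.3, quasi-likelihood F test, TMM scaling, its default filter on low counts) over all 9 libraries, with 12970 genes tested (99.985% of counts), 6 residual degrees of freedom and Benjamini-Hochberg adjustment over all genes. The common biological coefficient of variation was 18.4%. CPM are TMM-scaled, and 0.5 CPM was added before the log2 values of the plot by library. FPKM served for levels between genes and for markers. The GC correction subtracts a lowess trend (span 0.3) of each library with transcript GC content, read from the longest coding transcript in GENCODE v29 for 16115 genes (99.34%), as an offset in the same fit. Libraries of a group differed from each other by more than sampling noise.

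The members and lists were chosen with earlier results of these data known. Members named are up to 6 per comparison and direction with the smallest adjusted p, up to 6 whose call changed most with the GC correction, the members whose place differs from their symbol, and up to 4 genes per further list. Alternatives were other scalings, no filter, DESeq2 1.42.0, 2 groups only, a replicate block, length terms and each library left out. The method was tested on simulated data. The GC trend simulated there was the same for all genes, so that test cannot show how well the correction suits the members.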

Additional observations from a re-analysis of the deposited data

How the results depend on the processing

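Of 34 values of named members, 34 kept direction and call with DESeq2 and with median-ratio size factors, 29 with total counts and 9 with the GC correction. Some of the 34, such as those of MRPL36, MRPS14, MRPS18C and MRPS36, were named because their call changed with the GC correction. For these the outcome under that correction was fixed in advance. For LPS against control, 3 members were higher with GC and length terms and 4 both within length classes and with 2 groups only, and 24 were lower with 2 groups only. For LPS_ABS against LPS, 7 were higher with the GC correction, 9 within length classes, 8 with the replicate block and GC correction, 4 with total counts, 7 with no filter, 22 with DESeq2 and 2 with 2 groups only. There 2 were lower with the GC correction, with GC and length terms and with block and GC, 1 within length classes and 13 with total counts. For LPS_ABS against control, 1 was higher with the GC correction, with block and GC and with total counts, and 2 with GC and length terms and within length classes. There 6 were lower with the GC correction, with GC and length terms and with block and GC, and 4 within length classes. Values in the next 3 sentences follow the order GC correction, GC and length terms, length classes, block with GC. The MRPL minus MRPS median was -0.18, -0.17, -0.069 and -0.19 for LPS_ABS against LPS, and -0.049 by place in the structure, and -0.11, -0.082, -0.035 and -0.098 for LPS_ABS against control. For LPS_ABS against LPS, log2 fold changes turned sign to 0.078, 0.087, 0.17 and 0.069 in MRPL42, 0.26, 0.21, 0.35 and 0.26 in MRPL19, 0.73, 0.83, 0.44 and 0.70 in MRPS36, 0.57, 0.65, 0.36 and 0.56 in MRPL35 and 0.58, 0.62, 0.38 and 0.58 in MRPS14. For LPS_ABS against control they were 0.24, 0.28, 0.024 and 0.24 in MRPS18C. With the GC correction and with block and GC, LPS_ABS against LPS was -0.037 and -0.028 in MRPS34 and -0.016 and -0.0035 in MRPL41. In MRPS36, LPS_ABS against control was 0.16 with the GC correction, 0.21 with GC and length terms and 0.14 with block and GC. With 1 library left out, with and without the GC correction, LPS against control gave 0 to 4 members higher, 4 to 20 lower and a median difference of 0.018 to 0.096; LPS_ABS against LPS gave 1 to 15 members higher, 0 to 10 lower and a median difference of -0.27 to 0.12; LPS_ABS against control gave 0 to 7 members higher, 1 to 18 lower and a median difference of -0.13 to 0.24. In those fits LPS_ABS against LPS ranged over -0.51 to 0.35 in MRPL19, -0.13 to 0.73 in MRPL35, -0.18 to 0.59 in MRPL41, -0.73 to 0.17 in MRPL42, -0.17 to 0.66 in MRPS14, -0.17 to 0.53 in MRPS34 and -0.20 to 0.92 in MRPS36, and LPS_ABS against control over -0.74 to 0.13 in MRPL35, -0.070 to 0.53 in MRPL38, -1.13 to 0.046 in MRPL50, -0.040 to 0.57 in MRPS18A, -0.54 to 0.40 in MRPS18C and -0.75 to 0.35 in MRPS36. The cause of these changes was not tested. Shares of all genes called are not given beside the counts in this section, and they may move with the setting too. Same-numbered libraries did not pair, with correlations of their deviations from -0.035 to 0.203. The replicate block alone gave 0 members higher and 13 lower, 13 and 7, and 4 and 16 in the 3 comparisons. With 3 libraries a group, changes smaller than the spread between them were not detectable.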
